A study of Mus musculus with 36 samples.

Results

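The comparison asks whether waking changed the RNA on oligodendrocyte ribosomes by as much as it changed the remaining RNA of the same forebrains. For each mouse, the log2 signal of the unbound array was subtracted from that of the bound array, and these per-animal differences in 6 waking mice were set against those in 6 sleeping mice. This used 24 of the 36 arrays of the series, from 12 of its 18 animals, with 1 Affymetrix probe set per gene. The other 12 arrays, from 6 sleep deprived mice, served to estimate the spread and for a direct comparison with waking at the end.

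All animals were adult heterozygous Cnp – eGFP-L10a mice on the C57BL/6 strain. They carry the ribosomal protein L10a fused to green fluorescent protein under control of Cnp, a gene of myelinating cells, so ribosomes of those cells can be pulled down with an antibody against the tag. The precipitate is the bound fraction, and the supernatant, which holds RNA of neurons and other glia as well as oligodendrocyte RNA that was not captured, is the unbound fraction. Mice of the sleep group were taken in the light phase (3 to 5 pm) and had slept for 75% or more of the last 6 to 7 h. Mice of the waking group were taken in the dark phase (3 to 5 am) and had been awake for 70% or more of the last 6 to 7 h. Time of day and state therefore cannot be told apart. Sleep deprived mice were kept awake for 4 h of the light phase with objects they had not met before. Every mouse carried the transgene, and no array of a mouse without it was used.

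Oligodendrocytes wrap axons in myelin and make large amounts of lipid and a small set of myelin proteins. Neurons and other forebrain cells switch on immediate-early genes with activity, and most tissues run a circadian clock built on a loop of transcription factors and their own repressors. Heat shock chaperones fold proteins and are induced together by heat shock factors, and glucocorticoid hormone, which follows a daily rhythm, acts through a receptor that is itself a transcription factor.

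Here the waking change of a gene in a fraction is the mean of the waking arrays minus the mean of the sleep arrays, on the log2 scale, where 1 unit is a 2-fold change. The difference is the waking change in the bound fraction minus that in the unbound fraction, with its standard error (SE). A gene is called when its p-value, from limma with an intensity trend and adjusted by the Benjamini-Hochberg method over all 13924 tested genes, is below 0.05. All adjusted p-values below are of this kind. Counts at an unadjusted p below 0.05 are given for some lists without the share over all tested genes. They therefore do not show that a list stands out.

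Markers of the labelled cell type were enriched in the bound fraction, and the sums of the endothelial and red blood cell lists were mostly higher there too. The summed signal of 16 mature oligodendrocyte and myelin genes was higher in the bound than in the unbound array of each of the 12 mice, by 1.95 to 2.13 in sleep and by 1.99 to 2.17 in waking (log2). For 3 endothelial genes the sum was higher by 0.24 to 1.13 in sleep, and the range was -0.03 to 1.55 in waking. For 3 red blood cell genes it was higher by 0.42 to 0.65 and by 0.38 to 0.92. In sleep, only 1 of the 3 genes in each of these lists was higher in the bound fraction on average: Kdr, by 2.42, and Hba-a2, by 1.03. The median gene of each list was lower there, at -1.20 and -2.20, so these sums do not show that the lists as a whole were enriched. The sums of the other cell type lists were lower in the bound array of each mouse. Cnp itself, whose regulatory sequence drives the transgene, had a per-animal difference between 1.15 and 1.32 (median 1.22) in sleep and between 1.18 and 1.35 (median 1.28) in waking. The waking effect on it was 0.04 ± 0.05 and was not called (adjusted p = 0.661). Other probe sets of Cnp gave differences of 0.21 and 0.28, with unbound changes of -0.37 and -0.32. Rpl10a, which encodes the tagged ribosomal protein, was not called either, at -0.10 ± 0.11 (adjusted p = 0.651). Y-linked genes set 2 of the 6 waking mice apart in both fractions, with mean levels of 3.08 to 3.53 against 7.47 to 8.53 in the other sleep and waking arrays, and 1 sleep deprived mouse as well. Mean signal over all probe sets was 5.92 and 5.93 in the sleep and waking bound arrays and 6.40 and 6.34 in the unbound arrays, and the sources used here do not give which arrays were normalized together.

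Waking changed the 2 fractions to a different extent for 744 of 13924 genes (5.34%). The difference was higher, meaning that waking raised the bound signal more or lowered it less, for 549 genes (3.94%), and lower for 195 (1.4%). The median difference of all tested genes was 0.08. Among genes called higher the median difference was 0.83, and among genes called lower -0.97. In 542 of the 549 and in 189 of the 195, all 6 waking mice lay on the called side of the sleep mean, against 3341 of all 13924 tested genes on either side, but the calls rest on these same values. In 298 and 102 the per-animal values of the states did not overlap, against 526 of all tested genes (3.78%). The split depended on the scaling of the arrays. Of the genes called, 73.8% were higher with the deposited values, but 55.7% (325 against 258 lower) after quantile normalization over all 36 arrays, 55.4% (333 against 268) after quantile normalization within each fraction and 61.2% (347 against 220) after centring each array on its median.

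In bulk samples such as these, fewer cells of a type and less RNA per cell cannot be told apart. Within the bound arrays alone, waking against sleep called 1318 genes (9.47%), 651 higher (4.68%) and 667 lower (4.79%). Within the unbound arrays it called 1004 (7.21%), of which 207 rose (1.49%) and 797 fell (5.72%). After quantile normalization within that fraction the split was 342 against 338. Of the 744 genes with a called difference, 335 were called in the bound fraction alone, 213 in the unbound fraction alone and 42 in both with opposite signs. Another 4 were called in both with the same sign, and 150 in neither fraction by itself. Of the 335, 226 had a higher difference, with median waking changes of 0.63 in the bound and -0.16 in the unbound fraction, and 109 a lower one, with -0.84 and 0.12. Of the 213, 175 had a higher difference, with medians of 0.20 and -0.65, and 38 a lower one, with -0.19 and 0.72. These classes rest on the threshold in each fraction, and a missed threshold does not show that a fraction did not change.

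By median, genes called higher started below the unbound signal and ended level with it. Their median per-animal difference was -0.76 in sleep and 0.04 in waking, against -0.38 and -0.30 over all tested genes. Genes called lower went the other way, from 0.08 to -0.81. The calls rest on these same values, so a shift between the states is built in. The fractions lay nearer in waking for 375 of the 549 genes called higher and 58 of the 195 called lower, against 7455 of all 13924. Calls were most frequent among dim genes. With the tested genes split by signal into 5 groups of equal size, 10.3% were called in the dimmest group, 2.98% in the middle group and 5.64% in the brightest. Where a called gene had another tested probe set, that probe set moved in the same direction for 190 of 287 genes (66.2%, exact Clopper-Pearson 95% interval 60.4 to 71.7%), against 58.9% of 6411 genes not called. The share was 70.3% of the 219 genes called higher but 52.9% of the 68 called lower. Genes are not independent replicates, so these shares only describe the array.

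**Figure D1:**
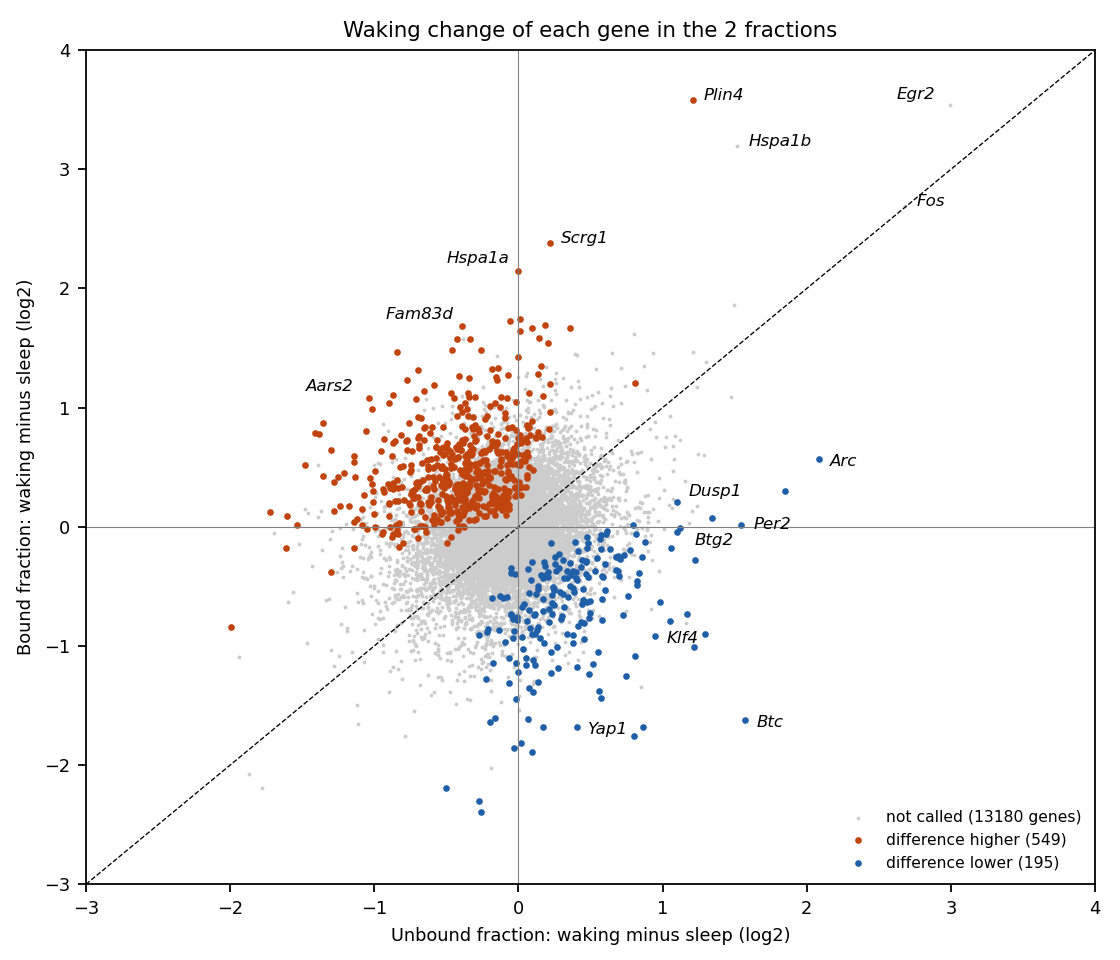
Each point is 1 of 13924 tested genes, with its mean log2 waking change in the unbound fraction on the horizontal axis and in the bound fraction on the vertical axis (6 sleep and 6 waking mice). The dashed diagonal marks equal change; the 549 genes called higher lie above it, the 195 called lower lie below it, and Fos and Egr2 rose in both fractions and were not called.

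Heat shock chaperones were the list with the most members called. Of 19 tested, 10 had a higher difference (background 3.94%) and 0 a lower one (0 lower also at an unadjusted limma p below 0.05), with a median difference of 0.37 against 0.08 over all genes. In the bound fraction 10 of the 19 rose (background 4.68%) and 0 fell, with a median change of 0.43. In the unbound fraction 2 rose (background 1.49%) and 1 fell (background 5.72%), with a median of 0.06. The list was tested across all genes like any other, and its members were chosen with earlier results known.

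Dnajb1, a co-chaperone that delivers clients to Hsp70 proteins, shows the pattern at a high signal. Its bound signal was between 11.72 and 11.95 (median 11.79) in sleep and between 12.12 and 12.68 (median 12.54) in waking. The unbound signal was between 12.31 and 12.60 (median 12.39) in sleep and between 12.17 and 12.47 (median 12.41) in waking. All 6 waking bound arrays lay above all 6 sleep bound arrays, while the unbound arrays of the states overlapped throughout. The waking changes were 0.66 ± 0.09 and -0.03 ± 0.06, and their difference of 0.69 ± 0.09 was called (adjusted p = 0.000407). A dimmer probe set of Dnajb1 rose in both fractions, by 1.25 and 0.71, and with the mean of both probe sets the call was lost (adjusted p = 0.0581).

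Chordc1, which binds Hsp90, had a per-animal difference between -0.77 and -0.52 (median -0.61) in sleep and between -0.07 and 0.38 (median 0.08) in waking. The states did not overlap, the bound signal rose by 0.96, and the difference was 0.75 ± 0.09 (adjusted p = 0.000189). Hsph1, a nucleotide exchange factor for Hsp70 proteins, rose in both fractions, by 0.82 in the bound and 0.21 in the unbound (adjusted p = 0.000158 and 0.00454), and its difference was 0.61 ± 0.09 (adjusted p = 0.000687). Its relative Hspa4l had a difference of 0.76 ± 0.13 (adjusted p = 0.00211), with per-animal values between -1.53 and -1.08 (median -1.31) in sleep and between -0.88 and -0.28 (median -0.59) in waking. Both genes again separated the states in every animal. All 4 other probe sets of Hspa4l and the other probe set of Hsph1 also gave a positive difference, from 0.22 to 0.55.

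The inducible Hsp70 genes had the largest bound changes of the list and the largest scatter. Hspa1a was between 5.19 and 7.37 (median 5.68) in the sleep bound arrays and between 7.70 and 8.63 (median 8.21) in the waking ones. In the unbound arrays it was between 6.58 and 7.29 (median 6.82) and between 6.26 and 7.75 (median 6.74). The bound values of the states did not overlap and the unbound values did, and the difference was 2.15 ± 0.52 (adjusted p = 0.0195, and 0.0996 when the arrays were not paired by mouse). The bound change of Hspa1a alone, 2.14 ± 0.68, was just outside the threshold (adjusted p = 0.0539), so the gene was called in neither fraction alone. Hspa1b is a near-identical copy whose probes may share RNA with Hspa1a. By its main probe set it rose in both fractions, by 3.19 ± 0.75 in the bound and 1.52 ± 0.35 in the unbound. Its difference of 1.68 ± 0.81 was not called (adjusted p = 0.245). Other probe sets of Hspa1b gave differences of 3.16 and 1.64, with unbound changes of -0.41 and 1.42, so its unbound rise depends on the probe set.

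The 5 further called members are abundant and moved by small amounts. They were Hspd1 and Hspe1, the mitochondrial chaperonin and its co-chaperonin, the cytosolic chaperones Hsp90aa1 and Hspa4, and the co-chaperone Dnaja1, with differences from 0.29 to 0.39. These 5 genes, and 9 others named below (Hspa1b, Btg2, Fos, Egr2, Fkbp5, Cry1, Nr1d1, Opalin and Pllp), were picked for naming after their values had been seen. The uncalled Zbtb16, Sult1a1, Dbp, Npas2 and Nr4a1, also named below, lie outside the naming rule as well and were not followed through the other settings. Hsp90aa1 had per-animal differences between -0.02 and 0.30 (median 0.15) in sleep and between 0.26 and 0.60 (median 0.43) in waking. Hspe1 had between -0.42 and -0.18 (median -0.28) in sleep and between -0.07 and 0.25 (median 0.09) in waking. The Hspe1 values separated the states completely and those of Hsp90aa1 overlapped, and both genes rose in the bound fraction, by 0.32 ± 0.06 and 0.43 ± 0.10. Hspd1 differed in that its unbound signal fell, at -0.16 ± 0.05 (adjusted p = 0.0448), while its bound change was 0.24 ± 0.09 (adjusted p = 0.112). Of the 9 members not called, Ahsa1, Stip1, Bag3, Dnajb4 and Hspa8 had differences of 0.16 to 0.47, and the small heat shock genes Hspb1, Cryab and Hspb8 had 0.005, -0.08 and -0.24. The count of called members was 7 to 9 under the 3 other scalings, 6 without the intensity trend and 9 without the 3 mice set apart by Y-linked genes. With the mean of all probe sets of a gene it was 9 higher and 1 lower.

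The promoter of Hspd1 and Hspe1 is shown because these genes share it, lie head to head and are the only called members of the list with a full heat shock element in the 250 bases before the start. The search used GAANNTTCNNGAA on both strands in RefSeq promoters (GRCm38.p6). The element was found in 2 of 9 called members with a promoter in the table, in 2 of 16 tested members (12.5%) and in 48 of 11187 tested genes (0.429%). The shared stretch at chr1:55088019-55088116, on the strand of Hspe1, carries 2 overlapping matches, marked in capitals.
Hspe1: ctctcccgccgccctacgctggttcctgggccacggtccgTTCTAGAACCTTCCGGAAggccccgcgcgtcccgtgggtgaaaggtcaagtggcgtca
A match is a description of the letters, and binding was not measured. The remaining 7 called members with a promoter had no full element in the 250 bases searched, which says only that these letters are not in that window.

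**Figure D2:**
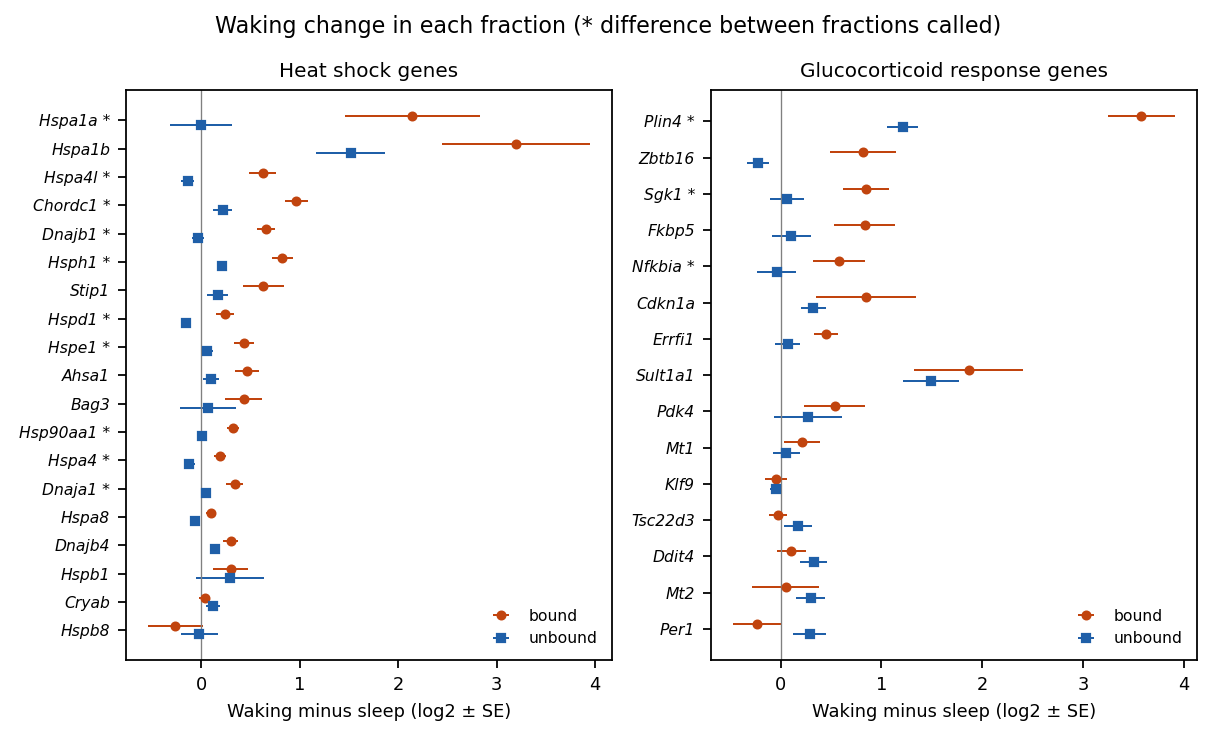
Waking change (log2, mean ± SE, 6 sleep and 6 waking mice) of the tested heat shock genes and glucocorticoid response genes, in the bound fraction (circles) and the unbound fraction (squares), ordered by the difference; an asterisk marks a called difference. Most heat shock genes sit to the right of 0 in the bound fraction and near 0 in the unbound fraction; Plin4 has the largest bound change of both lists, 3.58.

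Glucocorticoid response genes held 3 of 15 members with a higher difference (background 3.94%) and 0 lower, with a median of 0.37. The largest higher difference among all 13924 genes belonged to Plin4, a perilipin that coats lipid droplets. Its bound signal was between 5.21 and 6.30 (median 5.91) in sleep and between 8.51 and 10.19 (median 9.50) in waking. The unbound signal was between 4.61 and 5.10 (median 4.93) and between 5.86 and 6.55 (median 6.05). No values of the states overlapped in either fraction, so Plin4 rose in both, by 3.58 ± 0.33 and 1.21 ± 0.16. The bound rise was the larger by 2.37 ± 0.29 (adjusted p = 0.000148), and the call held in all 12 fits that left out 1 mouse. Plin4 is 1 of the 4 genes among the 744 that were called in both fractions with the same sign.

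Sgk1, a kinase named for its induction by serum and glucocorticoids, rose in the bound fraction by 0.85 ± 0.23 and had an unbound change of 0.06 ± 0.17 (adjusted p = 0.853). Its per-animal differences were between 0.54 and 1.70 (median 1.25) in sleep and between 1.57 and 2.50 (median 2.00) in waking, and the effect was 0.78 ± 0.18 (adjusted p = 0.0134, and 0.114 when the arrays were not paired by mouse). Nfkbia, an inhibitor of NF-kB, had an effect of 0.62 ± 0.17 (adjusted p = 0.0344), which did not pass under any of the 3 other scalings. Fkbp5, a co-chaperone of the glucocorticoid receptor, was not called at 0.73 ± 0.30 (adjusted p = 0.163). Zbtb16, a transcriptional repressor, was just outside the threshold at 1.04 ± 0.30 (adjusted p = 0.0509). Sult1a1, a sulfotransferase, rose in both fractions, by 1.86 ± 0.55 and 1.49 ± 0.28, and its difference of 0.37 ± 0.50 was not called.

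Of 24 immediate-early genes tested, 1 had a higher difference (background 3.94%) and 4 a lower one (background 1.4%), and the median was 0.02. In each fraction 10 members rose in waking, against a background of 4.68% in the bound and 1.49% in the unbound fraction. In the bound fraction 1 fell (background 4.79%). Fos, the classic activity marker, rose by 2.69 ± 0.27 in the bound and 2.68 ± 0.26 in the unbound fraction, and its difference was 0.01 ± 0.34 (adjusted p = 0.994). Egr2, a zinc finger transcription factor, rose by 3.54 ± 0.30 and 2.99 ± 0.40 and was not called either (adjusted p = 0.580). The sign of the Fos difference turned negative under all 3 other scalings, at -0.05 to -0.40.

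Arc, which encodes a synaptic protein that is made after activity, had the clearest lower difference of the list. In the bound arrays it was between 9.24 and 9.47 (median 9.35) in sleep and between 9.68 and 10.23 (median 9.89) in waking. In the unbound arrays it was between 7.33 and 8.39 (median 7.87) and between 9.54 and 10.53 (median 9.89). All waking arrays lay above all sleep arrays in both fractions, with rises of 0.57 ± 0.13 and 2.09 ± 0.17, and the unbound signal went from well below the bound signal to its level. The difference was -1.52 ± 0.21 (adjusted p = 0.000465).

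Dusp1, a phosphatase that shuts off MAP kinases, had a called rise in the unbound fraction only. Its unbound signal was between 9.09 and 10.01 (median 9.83) in sleep and between 10.48 and 11.22 (median 10.80) in waking. The bound change was 0.21 ± 0.14 (adjusted p = 0.392), and the difference -0.89 ± 0.20 (adjusted p = 0.0115). Btg2, an antiproliferative gene induced by growth factors, had bound signals between 6.78 and 7.53 (median 7.01) and between 6.40 and 8.32 (median 7.05). Its unbound signals were between 5.89 and 7.37 (median 6.50) and between 7.20 and 8.72 (median 7.85). The bound values overlapped and the unbound values overlapped only at the highest sleep array, and the difference of -1.27 ± 0.36 was just inside the threshold (adjusted p = 0.0438, and 0.123 without the 3 set-apart mice). The call of Btg2 was lost in 9 of the 12 fits that left out 1 mouse. Klf4, a transcription factor, fell in the bound fraction, at -0.92 ± 0.23, and rose in the unbound by 0.95 ± 0.28, both at low signals, with a difference of -1.87 ± 0.37 (adjusted p = 0.00564). Egr1, a transcription factor of the Egr2 family, was the member called higher, rising by 1.20 ± 0.14 and 0.81 ± 0.09 with a difference of 0.40 ± 0.10 (adjusted p = 0.0247). Under 2 of the 3 other scalings Egr1 was not called, and the 4 lower genes stayed 4 under all 3.

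The promoters of Btg2 and Dusp1 are shown because they are the called lower members that hold a palindromic cyclic AMP response element, TGACGTCA, in the 250 bases searched. That was 2 of the 3 with a promoter in the RefSeq table (GRCm38.p6). The element was found in 2 of 19 tested immediate-early genes (10.5%) and in 323 of 11187 tested genes (2.89%). The stretches are chr1:134079274-134079361 and chr17:26508568-26508655, both on the minus strand, with the element in capitals.
Btg2: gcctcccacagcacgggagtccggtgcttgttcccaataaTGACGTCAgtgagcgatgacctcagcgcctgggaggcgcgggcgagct
Dusp1: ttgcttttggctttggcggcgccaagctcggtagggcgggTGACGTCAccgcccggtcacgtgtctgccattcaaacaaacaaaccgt
Among all 195 genes called lower the share was 3.36% of 149 promoters, and among the 549 called higher 2.23% of 449.

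Of 19 core clock genes tested, Per2 alone was called, lower (background 1.4%), and 0 were called higher, with a median of -0.10. At an unadjusted limma p below 0.05, 2 were higher and 2 lower. In the bound fraction 1 rose (background 4.68%) and 2 fell (4.79%), and in the unbound fraction 4 rose (1.49%) and 2 fell (5.72%). Per2, a repressor of the clock loop, was between 6.05 and 7.57 (median 6.26) in the sleep bound arrays and between 6.07 and 6.71 (median 6.54) in the waking ones. In the unbound arrays it was between 6.22 and 7.26 (median 6.78) and between 7.84 and 9.28 (median 8.15). The unbound values of the states did not overlap and the bound values did, so the unbound rise of 1.54 ± 0.23 stood against a bound change of 0.02 ± 0.27. The difference was -1.52 ± 0.32 (adjusted p = 0.00859). Other probe sets of Per2 gave -0.30 and 0.24, and with the mean of its probe sets the call was lost (adjusted p = 0.0628).

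Clock genes with a change in both fractions were not called for a difference. Nr1d1, a nuclear receptor that represses the loop, fell, at -0.71 ± 0.11 in the bound and -0.61 ± 0.12 in the unbound fraction. Cry1, a partner of the period proteins, rose by 1.10 ± 0.15 and 0.63 ± 0.13, with a difference of 0.46 ± 0.17 (adjusted p = 0.125). Dbp, an output regulator of the clock, fell, at -0.87 ± 0.19 and -0.71 ± 0.14. Npas2, a partner of the loop's activator, rose in the unbound fraction by 0.69 ± 0.10, with a difference of -0.47 ± 0.20 that was not called (adjusted p = 0.189).

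**Figure D3:**
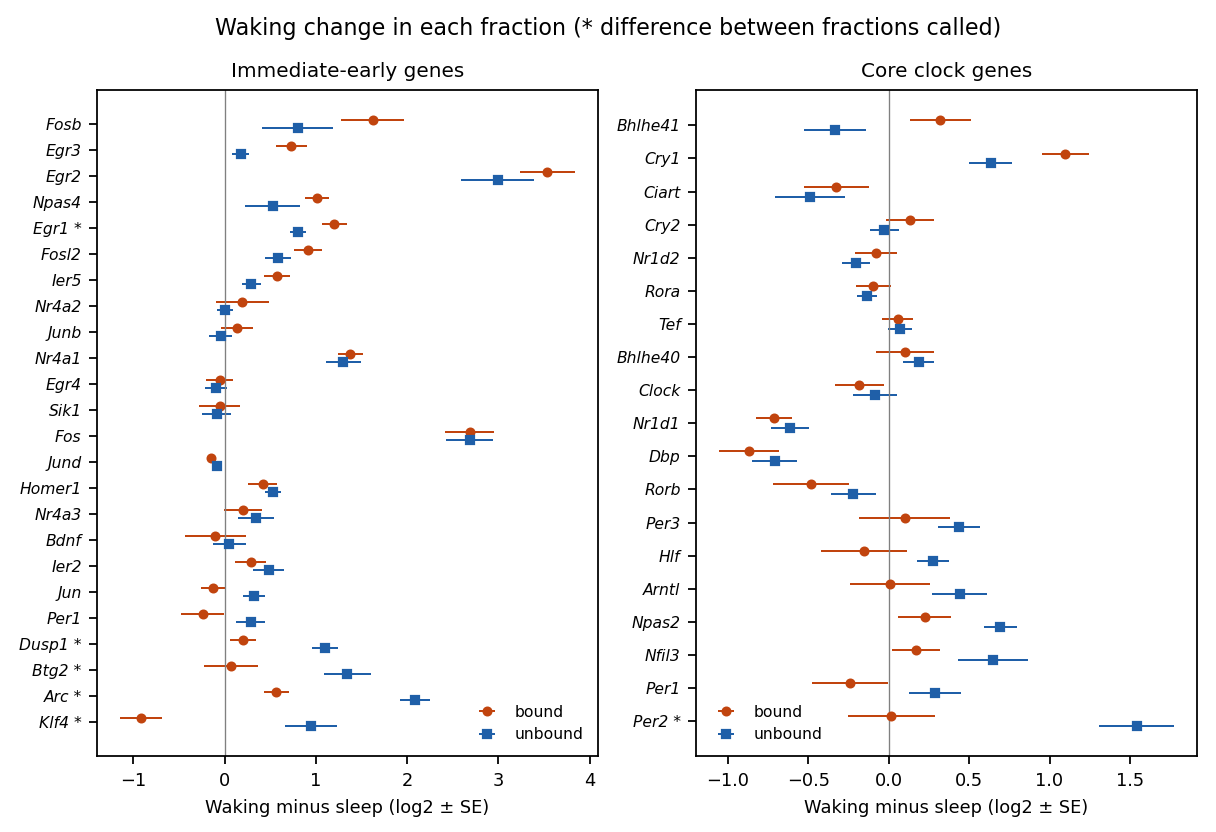
Waking change (log2, mean ± SE, 6 sleep and 6 waking mice) of the tested immediate-early and core clock genes in the bound fraction (circles) and the unbound fraction (squares); an asterisk marks a called difference. Fos, Nr4a1 and Nr1d1 changed in both fractions and were not called for a difference, while Arc, Btg2, Dusp1 and Per2 rise in the unbound fraction by 1.10 to 2.09 and in the bound fraction by at most 0.57.

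Of 16 mature oligodendrocyte and myelin genes, 2 were called higher (background 3.94%) and 0 lower, with a median of 0.13. At an unadjusted limma p below 0.05, 5 were higher and 1 lower. Car2, a carbonic anhydrase of oligodendrocytes, was between 11.80 and 12.18 (median 11.94) in the sleep unbound arrays and between 10.93 and 11.86 (median 11.64) in the waking ones, while its bound change was 0.01 ± 0.04. Cldn11, the claudin of myelin tight junctions, had a bound change of 0.09 ± 0.04 and an unbound change of -0.22 ± 0.07. Their differences were 0.42 ± 0.11 and 0.31 ± 0.08 (adjusted p = 0.0357 and 0.0309), and neither was called under any of the 3 other scalings or without the 3 set-apart mice. Under those scalings 1 member was called lower instead. This was Pllp, a myelin proteolipid, whose bound signal fell, at -0.75 ± 0.08, and whose difference was -0.52 ± 0.15 (adjusted p = 0.0509, and 0.0248 to 0.0352 under the scalings). Opalin, an oligodendrocyte membrane glycoprotein, fell in both fractions, at -0.77 ± 0.10 and -0.94 ± 0.18, and was not called.

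Precursor and lineage genes gave 1 higher call each (background 3.94%). Pdgfra, the growth factor receptor of oligodendrocyte precursors, had per-animal differences between -2.60 and -1.79 (median -2.11) in sleep and between -1.39 and -0.85 (median -1.12) in waking. The states did not overlap, and the effect was 1.06 ± 0.21 (adjusted p = 0.00665) although neither fraction alone was called. It was the 1 call among 13 precursor genes, and a second probe set gave -0.30. Yy1, a transcription factor needed for oligodendrocyte maturation, was between 10.45 and 10.80 (median 10.67) in the sleep bound arrays and between 11.12 and 11.37 (median 11.21) in the waking ones. No bound values overlapped, the unbound change was -0.06 ± 0.07, and its difference was 0.61 ± 0.11 (adjusted p = 0.00221), the 1 call among 15 lineage regulators. Other probe sets of Yy1 gave 0.42, 0.38 and -0.35, and their mean with the main one was not called (adjusted p = 0.156).

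Each of 3 lipid lists had at most 1 call (background 3.94% for higher). Among 18 cholesterol synthesis genes (3 at an unadjusted limma p below 0.05) Insig1 was called, and it holds the sterol sensor complex in the endoplasmic reticulum. Its bound change was 0.11 ± 0.09, its unbound signal fell, at -0.47 ± 0.10, and the difference was 0.58 ± 0.13 (adjusted p = 0.00988). Among 19 phospholipid genes (6 at an unadjusted p below 0.05) Pla2g3, a secreted phospholipase, was called at 1.57 ± 0.42 (adjusted p = 0.0341), with per-animal values between -0.60 and 0.69 (median 0.24) in sleep and between 1.10 and 2.83 (median 1.37) in waking. This call was lost without the 3 set-apart mice (adjusted p = 0.110) and in 5 of the 12 fits that left out 1 mouse. Of 22 fatty acid and myelin sphingolipid genes 0 were called by limma (5 at an unadjusted p below 0.05), with a median of 0.20. Hsp90b1, a chaperone of the endoplasmic reticulum, was the 1 call among 18 unfolded protein response genes, at 0.50 ± 0.11 (adjusted p = 0.0135; background 3.94%). Its other probe set gave 0.03, and the call was lost with the mean of both (adjusted p = 0.106) and without the 3 set-apart mice (adjusted p = 0.0658).

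Among the largest higher differences, some genes were called in the bound fraction and others in the unbound fraction. Scrg1, a small secreted protein first linked to prion disease, rose in the bound fraction, where its signal was between 4.58 and 5.61 (median 4.85) in sleep and between 6.78 and 8.03 (median 7.24) in waking. The unbound signal was between 7.30 and 7.92 (median 7.46) and between 7.49 and 7.97 (median 7.67). The bound values of the states lay far apart and the unbound values overlapped, and the difference was 2.16 ± 0.30 (adjusted p = 0.000407). Fam83d, a protein of the mitotic spindle, likewise had a bound rise, of 1.69 ± 0.33, and a difference of 2.08 ± 0.37. Msrb3, a methionine sulfoxide reductase, fell in the unbound fraction. Its unbound signal was between 8.24 and 8.54 (median 8.36) in sleep and between 6.50 and 7.34 (median 6.88) in waking, its bound change was 0.52 ± 0.19, and the difference was 2.00 ± 0.29 (adjusted p = 0.000707), although its other, dimmer probe set gave -0.16. Hyls1, a centriole protein, and S100a4, a calcium-binding protein, also fell in the unbound fraction, at -1.35 ± 0.23 and -1.38 ± 0.29, with differences of 2.22 ± 0.43 and 2.16 ± 0.44. The other large ones were Nrk, a kinase (2.20 ± 0.61), Lrrc49 (2.00 ± 0.50, against -1.11 for its other probe set) and Slc14a1, a urea transporter (2.00 ± 0.34). Nrk was called under none of the 3 other scalings (adjusted p = 0.0522 to 0.0573), not without the 3 set-apart mice (adjusted p = 0.128) and in 4 of the 12 fits that left out 1 mouse.

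Some genes rose in one fraction and fell in the other. Aars2, the mitochondrial alanyl-tRNA synthetase, had the smallest adjusted p of the 42 genes with opposite calls. Its bound signal was between 5.53 and 6.01 (median 5.74) in sleep and between 6.65 and 7.01 (median 6.83) in waking. Its unbound signal was between 7.06 and 7.29 (median 7.14) and between 5.93 and 6.32 (median 6.14). The bound arrays of the states and the unbound arrays of the states were each fully apart, and the fractions exchanged their order: unbound exceeded bound in all 6 sleeping mice and bound exceeded unbound in all 6 waking mice. The difference was 2.12 ± 0.21 (adjusted p = 1.76e-05). Zfp60, a zinc finger protein, crossed in the same way, with per-animal differences between -2.13 and -1.17 (median -1.57) in sleep and between 0.22 and 0.53 (median 0.37) in waking and an effect of 1.97 ± 0.22 (adjusted p = 7.49e-05). Ifitm3, an interferon-induced membrane protein, changed by 1.32 ± 0.40 in the bound and by -0.70 ± 0.18 in the unbound fraction, with a difference of 2.02 ± 0.48.

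Btc, which encodes betacellulin, a ligand of the epidermal growth factor receptor, had the largest lower difference. It was between 5.54 and 6.63 (median 5.98) in the sleep bound arrays and between 3.79 and 5.49 (median 4.29) in the waking ones. In the unbound arrays it was between 2.79 and 3.98 (median 2.97) and between 3.66 and 4.99 (median 4.87). The bound arrays were fully apart between the states, and the unbound arrays overlapped only where 1 waking array lay below 1 sleep array. The waking changes of -1.62 ± 0.26 and 1.57 ± 0.27 gave a difference of -3.20 ± 0.39 (adjusted p = 0.000148). Yap1, the coactivator of the Hippo pathway, fell in the bound fraction, at -1.68 ± 0.23, with a difference of -2.09 ± 0.42 (adjusted p = 0.00645), but its other, dimmer probe set gave -0.15. Pdlim3, an actin-associated protein, Fgf5, a growth factor, and Lhx1os, a non-coding RNA opposite Lhx1, also fell in the bound fraction, at -1.25 ± 0.15, -1.89 ± 0.37 and -1.68 ± 0.31, and a second probe set of Fgf5 gave a difference of -0.07. Zcchc4, an RNA methyltransferase, and St3gal1, a sialyltransferase, instead rose in the unbound fraction, by 1.30 ± 0.19 and 1.22 ± 0.34. The remaining large ones, Tfpi, Nfkbie, Steap3 and Fzd5, had differences of -2.56, -2.54, -1.90 and -1.94, and for the Wnt receptor Fzd5 the adjusted p was 0.0478. With the mean of probe sets the differences of Tfpi and Nfkbie were -0.80 and -0.74 and were not called (adjusted p = 0.0576 and 0.393), and Fzd5 was not called in 9 of the 12 fits that left out 1 mouse.

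**Figure D4:**
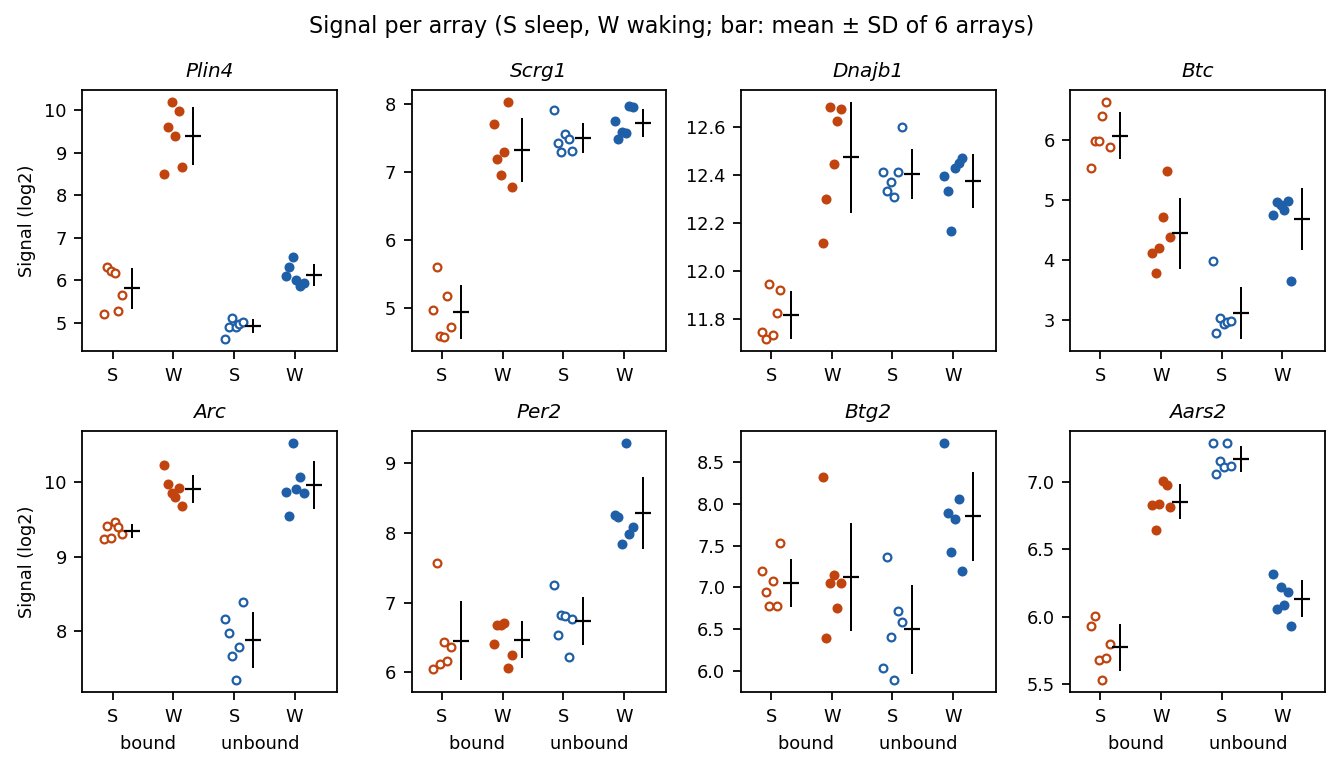
Log2 signal of 8 genes on each array, by fraction and state (S sleep, W waking; open and filled circles; crosses with bars, mean ± SD of 6 arrays). Scrg1 and Dnajb1 separate the states in the bound arrays only, Per2 in the unbound arrays only, and Plin4 in both, while for Aars2 the bound and unbound levels exchange their order.

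Signals of bright genes are less affected by background on an array. Among called genes brighter than the median tested gene in both fractions, the largest higher differences were those of Ahsa2, Phlda3 and Dnase2a. Ahsa2, a relative of the Hsp90 activator Ahsa1, rose in the bound fraction by 1.67 ± 0.25, and its per-animal differences were between -1.78 and -0.05 (median -0.51) in sleep and between 0.37 and 0.84 (median 0.59) in waking. Phlda3, a repressor of Akt signalling, changed by 0.37 ± 0.06 in the bound and by -0.87 ± 0.18 in the unbound fraction, with a difference of 1.24 ± 0.19 (adjusted p = 0.00108). Dnase2a, the lysosomal DNase, had a bound rise of 0.84 ± 0.15 and a difference of 1.23 ± 0.17. The per-animal differences of these 3 genes did not overlap between the states. Pkn2, a protein kinase, had a difference of 1.21 ± 0.17, although its dimmer probe set gave -0.14. The zinc finger genes Zfp655 and Zfp37 fell in the unbound fraction, at -0.86 ± 0.15 and -1.12 ± 0.21, but other probe sets gave differences of 0.19 and -0.40 for Zfp655 and 0.03 for Zfp37.

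Bright genes called lower, after Arc and Dusp1 above, had smaller effects. Mettl5, an RNA methyltransferase, fell in the bound fraction, at -0.52 ± 0.12, and its per-animal differences were between 0.91 and 1.25 (median 1.14) in sleep and between -0.06 and 0.45 (median 0.12) in waking. These did not overlap, and the difference was -0.97 ± 0.19 (adjusted p = 0.00481). Vamp8, a vesicle fusion protein, fell in the bound fraction, at -1.12 ± 0.29. Kif1c, a kinesin motor, rose in the unbound fraction by 0.69 ± 0.20, and its difference of -0.93 ± 0.25 (adjusted p = 0.0358) was 0.565 in adjusted p with the mean of its 4 probe sets. The lariat debranching enzyme Dbr1, the repressor Nkrf and the kinase Sbk1 had differences of -0.94, -0.99 and -0.90 and were called in neither fraction alone.

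Marker lists of other forebrain cells were also examined, since the supernatant holds them and the bound fraction may carry some of their RNA. Of 16 neuronal, 14 astrocyte and 10 microglial genes tested, 0, 1 and 0 were called higher (background 3.94%) and 0 lower, with medians of 0.10, 0.34 and 0.50. By the same fit at an unadjusted p below 0.05, 2 of the neuronal, 6 of the astrocyte (4 higher, 2 lower) and 2 of the microglial genes passed. The astrocyte call was Ndrg2, a gene of astrocyte membranes, whose bound signal rose by 0.41 ± 0.06 and whose difference was 0.35 ± 0.06 (adjusted p = 0.00109). The summed microglial signal, bound minus unbound, was -2.93 to -2.29 (median -2.67) in sleep and -2.78 to -1.80 (median -2.11) in waking. The summed neuronal signal was -1.17 to -0.79 (median -0.99) in sleep and -0.94 to -0.77 (median -0.88) in waking, and that of the astrocyte genes had medians of -0.41 and -0.36. The ranges of the states overlapped for all 3 sums, and their part in the larger number of higher calls was not tested. RMA values have no 0, so no marker is listed at 0. Of 7 mural genes Pdgfrb was the single call (-0.76 ± 0.21, background 1.4% for lower). Rgs9 was that of 7 striatal genes (1.01 ± 0.26) and the channel subunit Kcne4 that of 22 potassium channel genes (1.15 ± 0.30, background 3.94% for higher). The calls of Pdgfrb and Rgs9 were lost with the mean of probe sets (adjusted p = 0.875 and 0.624). The call of Kcne4 was lost under 2 of the 3 other scalings (adjusted p = 0.0709 and 0.0540), without the 3 set-apart mice (adjusted p = 0.0760) and in 6 of the 12 fits that left out 1 mouse.

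Many calls of single genes depended on a setting. Of the 66 called genes chosen for naming, 28 kept their call under all settings in which they were tested, among them Aars2, Ahsa2, Arc, Btc, Chordc1, Dusp1, Hspa4l, Hsph1, Insig1, Mettl5, Ndrg2, Plin4, Scrg1 and Zfp60. The mean of all probe sets ended 17 calls, which beside those given above were Hsp90aa1, Klf4, Lrrc49, Nfkbia, Pdgfra, Sbk1, Zfp655 and Btg2. Leaving out the 3 set-apart mice ended 21, among them Ifitm3, Lrrc49, St3gal1, Fgf5, Vamp8, Nkrf, Dbr1, Sbk1, Egr1, Nfkbia, Pdgfrb, Rgs9 and Hspa4. The 3 other scalings ended 11 in all, including Dnaja1, Hsp90aa1, Hspd1 and Rgs9, and leaving out 1 mouse ended 15 in at least 1 fit, including Kif1c, Lrrc49, Pdgfrb, Sbk1 and Vamp8. Of the 12 such fits, Sbk1 was lost in 10, Btg2, Fzd5 and Nfkbia in 9, and Kif1c, Nrk and Pdgfrb in 8. Without pairing by mouse 9 were not called: Btg2, Car2, Dnaja1, Egr1, Hspa1a, Hspe1, Nfkbia, Pla2g3 and Sgk1.

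Per-animal differences of waking mice were tested directly against those of sleep deprived mice, and 594 genes were called (4.27%). Both comparisons use the same waking mice, so the values are given side by side. Of the genes named by the rule, 12 with a called difference against sleep were also called against sleep deprivation. Kcne4 was between -3.95 and -2.63 (median -3.47) in sleep deprivation against between -1.82 and -0.55 (median -1.07) in waking, a gap of 2.26 ± 0.30 (adjusted p = 0.000504). Msrb3 was between -4.09 and -2.23 (median -2.68) against between -1.69 and -0.48 (median -0.65), a gap of 2.08 ± 0.29 (adjusted p = 0.000824). For both genes all waking mice lay above all sleep deprived mice. Pdlim3, Lhx1os and Kif1c showed the reverse, with gaps of -2.20 ± 0.33, -1.50 ± 0.27 and -1.42 ± 0.25, and no waking value overlapped a sleep deprived one in any of the 3.

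Aars2 was graded: its median per-animal difference was -1.42 in sleep, -0.17 in sleep deprivation and 0.70 in waking, and the gap between waking and sleep deprivation was 0.97 ± 0.21 (adjusted p = 0.0115). Ifitm3, Fgf5, Rgs9, Hsp90b1, Yy1 and Ndrg2 also differed, with gaps of 2.14, -1.66, 1.07, 0.44, 0.42 and 0.29. For Plin4 the sleep deprived mice were between 1.53 and 2.90 (median 2.34), and the gap of 0.98 ± 0.29 was just outside the threshold (adjusted p = 0.0581). Scrg1 was between -0.73 and 1.06 (median -0.20) in sleep deprivation, Arc between -0.61 and 0.03 (median -0.48) and Dnajb1 between -0.04 and 0.16 (median 0.01). None of these 3 was called against waking (adjusted p = 0.628, 0.454 and 0.824), with gaps of -0.29 ± 0.30, 0.30 ± 0.21 and 0.05 ± 0.09.

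**Figure D5:**
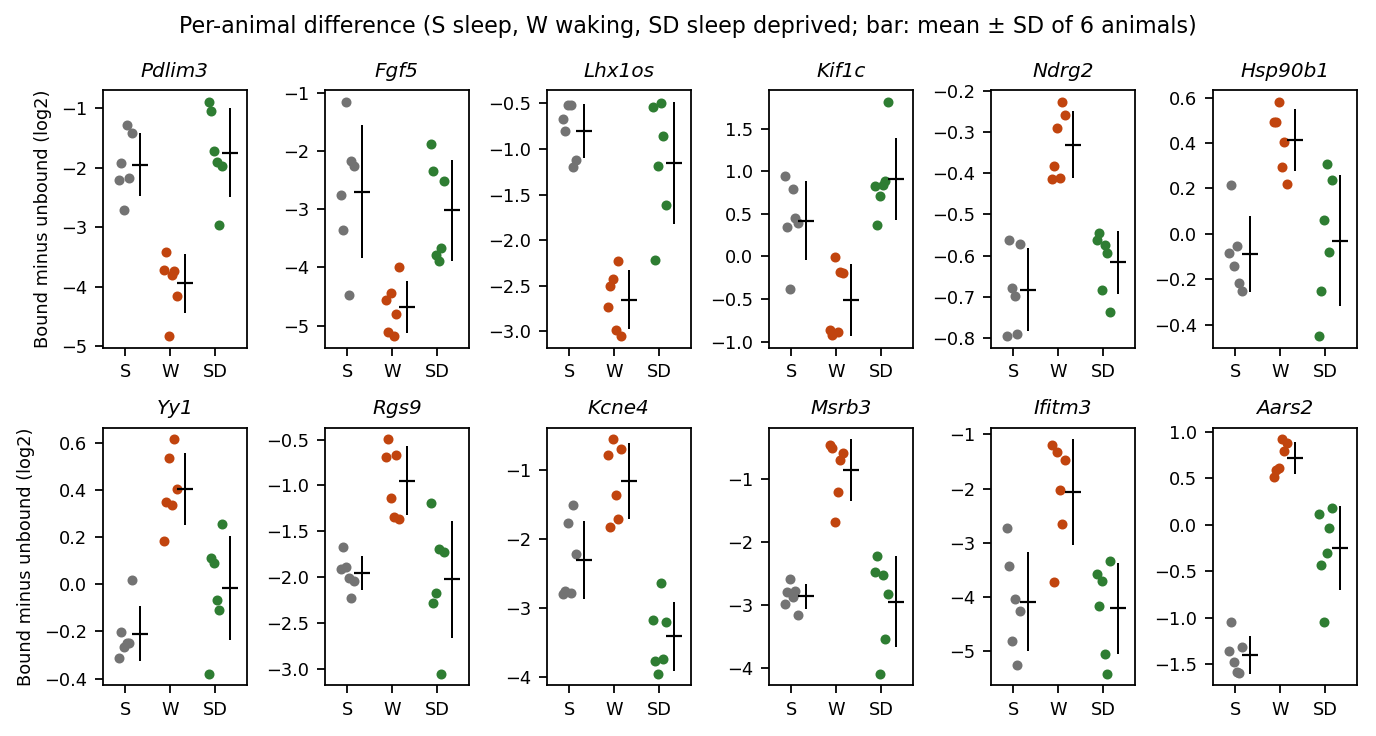
Per-animal bound minus unbound log2 signal of the 12 named genes that were called both against sleep and against sleep deprivation (S sleep, W waking, SD sleep deprived; points are mice, crosses with bars are mean ± SD of 6 mice). In Pdlim3, Fgf5, Lhx1os and Kif1c the waking mean is the lowest of the 3 states, and in the other 8 genes it is the highest, with Aars2 stepping up from sleep through sleep deprivation to waking.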

How the data were processed

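The authors deposited log2 signals for 45101 probe sets of an Affymetrix mouse array on 36 arrays, and the submitters' processing notes name RMA. The sources used here do not give which arrays were normalized together. Of the probe sets, 34945 name 1 gene in the platform annotation, 932 several, 9160 none and 64 are controls. Symbols were matched to RefSeq by Entrez ID for 34741. For each of 18193 genes the probe set with the highest mean over 36 arrays was kept, and 13924 genes were tested because their mean was at or above 4.47 in the bound or 5.18 in the unbound fraction, the 40th percentiles over probe sets. The 18 per-animal differences were fitted as 3 group means by limma 3.58.1 (R 4.3.3), whose intensity trend used the mean level of both arrays. The waking changes came from group-means fits of the 18 bound and the 18 unbound arrays. The number of arrays limits the precision. The scripts were tested on simulated data.

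The labels give both fractions of a mouse the same replicate number, so the difference is paired by animal. As a check, each array's deviation from its group mean was correlated with that of its partner, which gave -0.0032 to 0.0848 (mean 0.0458), and -0.0090 on average for arrays of different mice. The own partner was the best match for 6 of the 12 sleep and waking mice.

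Named genes were the 12 largest called differences in each direction, the 8 largest in each direction among genes brighter than the median tested gene in both fractions, up to 6 with opposite calls, up to 4 called members per list (or 2 with the smallest p where none was called), Cnp and Rpl10a. Uncharacterised symbols were skipped. The members, the 30 gene lists and the tests were chosen with earlier results of these data known. Motifs were searched on both strands of the 250 bases before each RefSeq start (GRCm38.p6). Besides the heat shock element and the cyclic AMP response element, a pair of heat shock units (TTCNNGAA) and the E-box (CACGTG) were searched. The E-box was found in 14.8% of 149 promoters of genes called lower, 8.02% of 449 called higher and 9.55% of 11187 tested. For the pair of units the shares were 2.69%, 8.91% and 6.93%. None of these shares was tested. Alternatives were 3 other scalings, other filters, probe set rules, moderation and blocks, leaving out each mouse in turn, and leaving out the 3 mice set apart by Y-linked genes.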

Additional observations from a re-analysis of the deposited data

Results flagged for a closer look

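In the following groups of 6 mice 1 per-animal difference (bound minus unbound, log2) stood apart from the rest by Dixon's criterion. Of 206 such groups tested 16 were flagged, and chance flags about 1 in 20. In sleep, Btc was 1.55 in mouse 1 (others 2.91 to 3.67), Steap3 1.75 in mouse 3 (others at most 0.39), Klf4 1.52 in mouse 4 (others at most -0.37) and Pkn2 -0.45 in mouse 5. Further sleep values were Egr1 -1.999 and Yy1 0.0171 in mouse 6, Cdkn1b 1.19 and Hspd1 0.22 in mouse 2, Ifit1 2.54 in mouse 5, Crh -5.77 in mouse 3 and Rpl10a -0.77 in mouse 1. In waking, Yap1 was -4.02 in mouse 2, Klf4 -1.39 in mouse 6, Car2 3.05 in mouse 3 (others 2.18 to 2.36), Dnaja1 0.0198 in mouse 5 and Nr1d1 -0.41 in mouse 4. Car2 in waking mouse 3 and Dnaja1 in waking mouse 5 belong to the mice that Y-linked genes set apart.

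Waking and sleep deprived mice differed, by limma's test of the gap itself, for 12 named genes. The gaps, waking minus sleep deprivation, were 0.97 for Aars2, 2.14 for Ifitm3, 2.08 for Msrb3, 2.26 for Kcne4, 1.07 for Rgs9, 0.44 for Hsp90b1, 0.42 for Yy1 and 0.29 for Ndrg2. They were -2.20 for Pdlim3, -1.66 for Fgf5, -1.50 for Lhx1os and -1.42 for Kif1c.

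Outside the tested genes, 1838 of the 9160 probe sets that name no gene had a called difference in a fit over all probe sets. That fit had no signal filter, and dim probe sets were called more often. With its probe sets split by signal into 10 groups, 17.5% were called in the dimmest group and 9.58% in the brightest. Shares in between ran from 26.8% in group 2, counted from the dimmest, to 5.39% in group 8. The count therefore cannot be set against the 5.34% of tested genes.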

How the results depend on the processing

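Of the 744 genes called, 503 were called under all 3 other scalings, 390 in all 12 fits that left out 1 mouse, 348 without the 3 mice set apart by Y-linked genes, and 283 in all of these (222 higher, 61 lower). No called gene changed sign except 23 with the mean of all probe sets. Higher calls numbered 325 after quantile normalization over all arrays, 333 within fractions and 347 after centring. Leaving out each mouse gave 549 to 631 calls (408 to 472 higher, 137 to 168 lower). The replicate number as a block across states, which are different mice, gave 381 (277 and 104), and no replicate block within mice gave 868. No filter gave 2071 (1408 and 663) over 18193 genes, and the 60th percentile in both fractions 238 (190 and 48) over 8610. Without the 3 set-apart mice there were 382 (289 and 93). Bound calls were 612 with the strict filter (297 rose, 315 fell) and 684 without those mice (345 and 339), and unbound calls 536 (83 and 453) and 533 (120 and 413). Unbound calls after quantile normalization were 342 and 338. Uncalled differences that changed sign were Cnp (-0.0138 after quantile normalization over all arrays and -0.0141 after centring), Fos (-0.40, -0.0832 and -0.0508 under the scalings, -0.30 without the set-apart mice, -0.20 to 0.17 with single mice left out), and, with the mean of probe sets, Ccnd1 -0.15, Hbb-b2 0.11, Eif2s3y 0.0843, Egr2 -0.18 and Opalin -0.0913. Cldn5 ranged from -0.0616 (without waking mouse 5) to 0.48 with single mice left out. The cause of these changes was not tested. Signals near background and probe sets of a gene that disagree limit the dim genes most.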

Other observations

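Bright genes (above the median tested gene in both fractions) that are not described above were ranked by p-value. The 8 with the smallest had differences between -0.87 and 0.83. They were chosen after their values were seen, and the adjusted p-values are limma's over all tested genes. Rcan2, a regulator of the phosphatase calcineurin, had per-animal differences between 0.19 and 0.28 in sleep, between 0.52 and 0.83 in waking and between 0.54 and 0.74 in sleep deprivation. The sleeping mice lay below all others. Rcan2 rose in the bound fraction by 0.52 ± 0.05 and had an unbound change of 0.00 ± 0.04, and the difference was 0.52 ± 0.05 (adjusted p = 2.98e-05). Its other probe set gave 0.39.

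Elmo1, an adaptor that activates Rac, rose in the bound fraction by 0.53 ± 0.06, with a difference of 0.57 ± 0.09 (adjusted p = 0.000916), and its other probe sets gave 0.43 and 0.81. Dynll1, a light chain of dynein, rose in the bound fraction by 0.33 ± 0.06 with a difference of 0.35 ± 0.06, and its 3 other probe sets gave 0.27 to 0.68. Nsd1, a histone methyltransferase, rose there by 0.46 ± 0.06 with a difference of 0.69 ± 0.11.

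Ap2m1, a subunit of the clathrin adaptor, was between -0.57 and -0.44 in sleep and between -0.26 and -0.03 in waking. It rose in the bound and fell in the unbound fraction, and the difference was 0.35 ± 0.05 (adjusted p = 0.000666). Tent4b, a non-canonical poly(A) polymerase, likewise changed by 0.44 ± 0.10 in the bound and by -0.39 ± 0.09 in the unbound fraction. Shroom2, an actin-binding protein, fell in the unbound fraction, with a difference of 0.60 ± 0.10. Cobl, an actin nucleator, was the 1 gene of the 8 with a lower difference, at -0.87 ± 0.15 (adjusted p = 0.00200), with a bound change of -0.64 ± 0.13. Its other probe set gave -0.44. In 7 of the 8 genes the per-animal differences of sleep and waking mice did not overlap, and for Cobl they overlapped by 1 value of each state.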
